A study of Mus musculus with 20 samples.

Results

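The cytosolic ribosome is built from ribosomal RNA and about as many different proteins as there are genes described here, each made from its own messenger RNA. Ribosomal protein genes were chosen by symbol: names that start with Rpl or Rps and a digit, together with Rplp0, Rplp1, Rplp2 and Rpsa, without the S6 kinases and without named pseudogenes. This gave 85 of the 15882 gene names found in both deposited tables. Of the 85 genes, 31 encode proteins of the small (40S) subunit and 45 encode proteins of the large (60S) subunit. The remaining 9 are paralogs, gene copies or associated genes, namely Rps27l, Rps4l, Rpl22l1, Rpl36al, Rpl39l, Rpl7l1, Rpl32l, Rpl37rt and Rps19bp1.

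The values come from RNA-seq of epithelial cells of the jejunum, a part of the small intestine, taken from female mice, and the series' own description places them in the crypts. In the double knockout (DKO), Kdm6a and Kdm6b had been ablated; both encode enzymes that remove methyl groups from lysine 27 of histone H3. The acute comparison had 7 DKO and 5 control libraries from 7 days after ablation, and the prolonged comparison had 5 DKO and 3 control libraries from 5 months after it, with controls labelled as control or wild type. The promoter that drives the recombinase and the age of the mice are not given in the sources used here.

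Ribosomal proteins are needed in nearly equal numbers, because each ribosome holds a single copy of most of them. Their messenger RNAs are among the most abundant in dividing cells, and most begin with a run of pyrimidines next to the cap, through which growth signals that pass through the kinase complex mTORC1 control their translation. Crypts hold the stem cells and fast-dividing progenitors of the gut, which spend much of their effort on making ribosomes. A few ribosomal proteins have paralogs with uses of their own: RPS27L, for example, is a target of p53, and RPL22L1 is known to change in level when RPL22 is lost.

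Levels are in CPM, the reads of a gene scaled so that each library sums to 1000000, and the libraries held from 9914738 to 26586045 reads in genes. At both times the DKO values of Kdm6a and of Kdm6b all lay below the control values, and Kdm6a averaged 42.6 ± 2.73 CPM in acute DKO and 66.1 ± 6.62 CPM in acute control libraries, and 49.1 ± 3.93 CPM in prolonged DKO against 76.2 ± 5.95 CPM in prolonged control libraries (SD). Across all genes, 394 rose and 1641 fell in the acute DKO and 765 rose and 1190 fell in the prolonged DKO (limma, Benjamini-Hochberg adjusted p under 0.05); with TMM composition scaling the acute split was 660 higher and 1124 lower. Acute DKO 3 and acute DKO 4 stood apart from the other acute libraries on the first principal component, at 34.0 and 45.9, with the others between -28.0 and 12.1. The summed level of the 15 enterocyte markers ranged from 42954 to 56052 CPM in acute DKO and from 35423 to 49788 CPM in acute control libraries, and that of the 11 stromal, muscle and endothelial markers from 34.5 to 703 CPM against 46.1 to 207 CPM.

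The ribosomal protein genes together took from 1.19 to 1.79% of the reads in genes of a library. The sources used here do not say how reads that match several genes were counted, which bears on the size of this share. In the acute DKO libraries they held 1.34, 1.6, 1.41, 1.21, 1.47, 1.61 and 1.79% of reads in genes, and in the acute control libraries 1.63, 1.61, 1.76, 1.61 and 1.49%. The mean was 1.49 ± 0.195% in the acute DKO (SD, n = 7) and 1.62 ± 0.0965% in the acute control (SD, n = 5), and the groups overlapped at both ends. The highest and the lowest acute library were both DKO. In the prolonged libraries the share was 1.42, 1.28, 1.49, 1.31 and 1.33% in DKO and 1.48, 1.19 and 1.34% in control, with means of 1.37 ± 0.0837% (SD, n = 5) and 1.33 ± 0.146% (SD, n = 3). Here the lowest library was a control, and the DKO values lay among the control values apart from DKO 3, which was just above them. In bulk libraries such as these, fewer cells of a type and less RNA per cell cannot be told apart.

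The balance between the subunits hardly moved. Reads of 60S genes over reads of 40S genes gave a ratio of 1.24 ± 0.0102 in acute DKO and 1.23 ± 0.00588 in acute control libraries, and of 1.22 ± 0.00780 in prolonged DKO and 1.23 ± 0.0141 in prolonged control libraries (SD). The lowest ratio of any library was 1.21 and the highest 1.25, while the summed share itself ranged from 1.19 to 1.79%. The 10 most abundant members held 50.4% of all member reads in the acute DKO and 50.2% in the acute control, and 50.5% and 50.4% in the prolonged DKO and control.

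**Figure D1:**
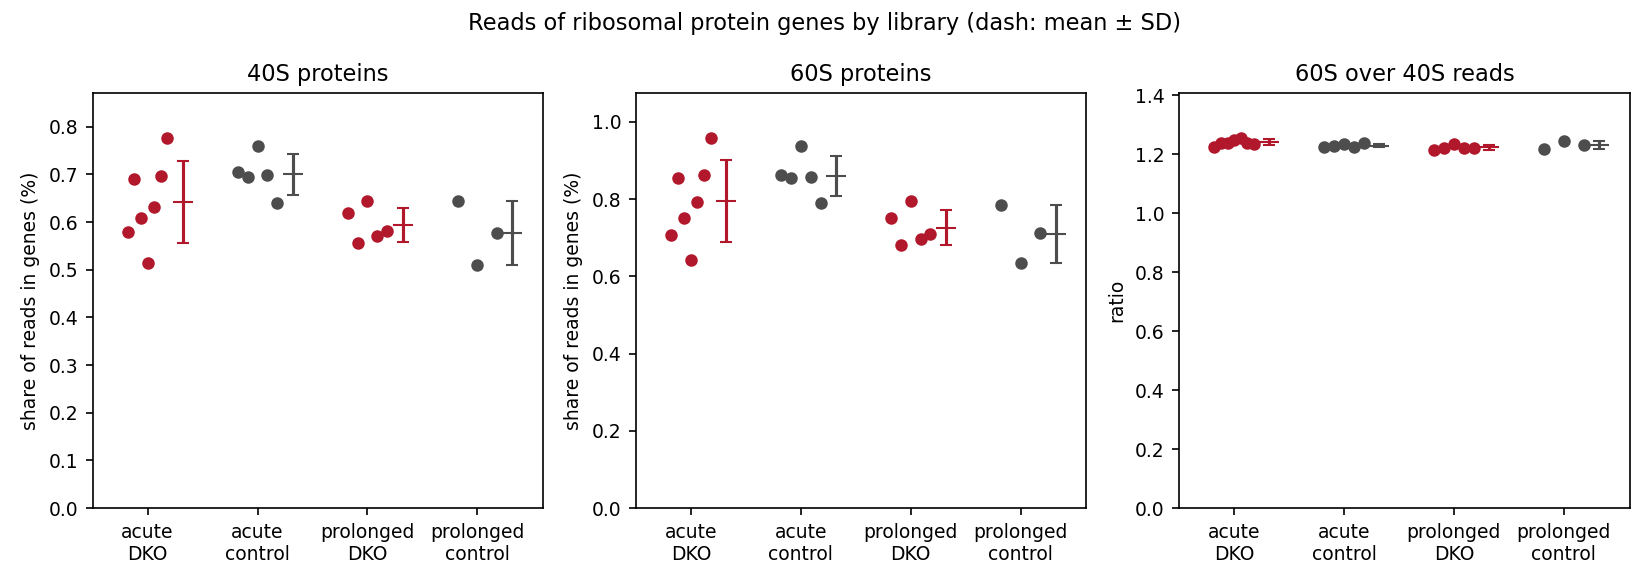
Share of reads in genes held by 40S proteins (left) and 60S proteins (middle), in percent, and the ratio of 60S to 40S reads (right), with 1 point per library, DKO in red and control in grey, and the mean ± SD as a dash with a bar. The shares spread within every group and the groups overlap, while the ratio stays between 1.21 and 1.25 in all 20 libraries.

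The spread between libraries was shared by nearly all members. For each gene, the deviation of a library from the gene's median over the libraries of that time was taken on the log2(CPM + 1) scale. In acute DKO 4, 76 of the 85 genes were below their median, with a median deviation of -0.37, and 56 genes had their lowest acute value there. In acute DKO 7, 79 genes were above their median, the median deviation was 0.18, and 43 genes had their highest acute value. Acute control 3 came next, with 78 genes above their median and the highest value of 25 genes. In the prolonged set, control 2 had 79 genes below their median and the lowest value of 57, while the highest values were found mostly in DKO 3, with 35 genes, and control 1, with 29. The 40S and the 60S genes moved alike within a library: their median deviations were -0.38 and -0.36 in acute DKO 4, 0.18 and 0.19 in acute DKO 7, and -0.17 and -0.16 in prolonged control 2. These deviations were not taken over all genes. Translation factors had the same extremes: their summed level was lowest in acute DKO 4, at 13858 CPM, and highest in acute DKO 7, at 19019 CPM. Among prolonged libraries it was lowest in control 2, at 15037 CPM. The summed level of the growth control genes described below was instead highest in acute DKO 4, at 2419 CPM. The library with the lowest values, acute DKO 4, was also 1 of the 2 that stood apart over all genes, and its summed Paneth cell markers were 863 CPM against 1590 to 3944 CPM in the other acute DKO libraries; the part of this in the ribosomal protein values was not tested.

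**Figure D2:**
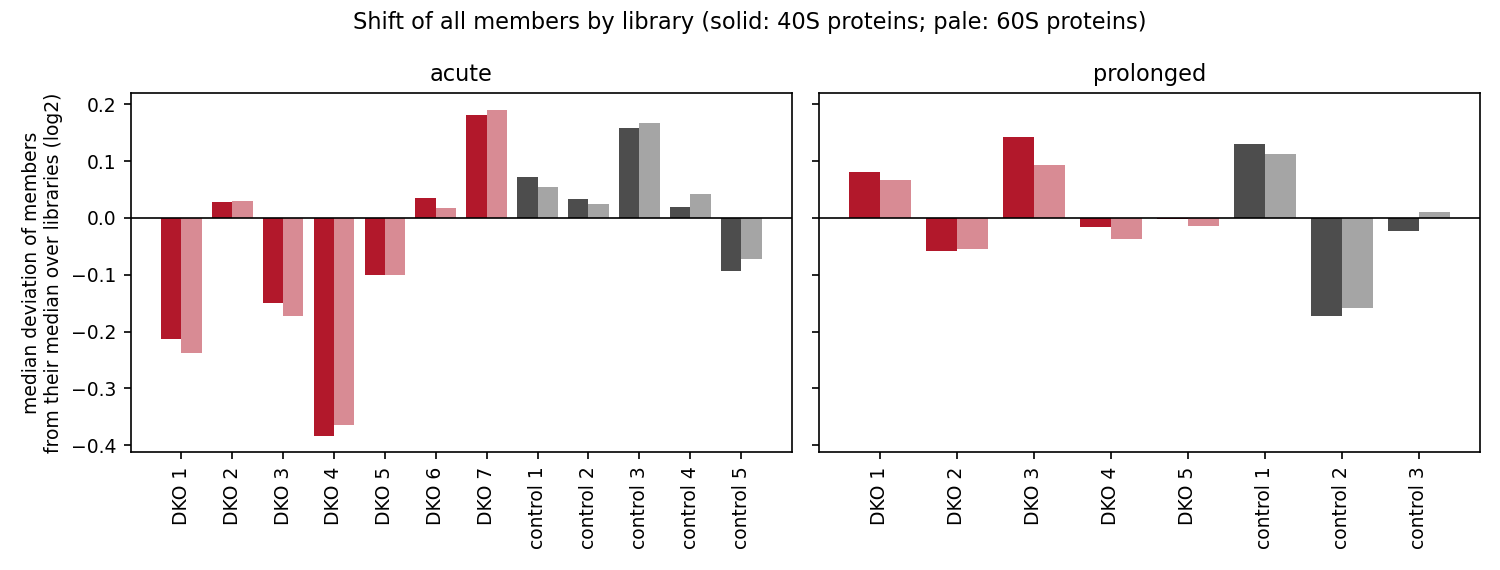
Median deviation of 40S members (solid bars) and 60S members (pale bars) from their own median over the libraries of the same time, on the log2(CPM + 1) scale, for each acute (left) and prolonged (right) library, DKO in red and control in grey. Both subunits shift by nearly the same amount in each library, from -0.38 in acute DKO 4 to 0.19 in acute DKO 7, and DKO and control libraries lie on both sides of 0.

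At 7 days the ribosomal protein transcripts of the DKO lay close to control levels. Of the 85 genes, all of which passed the filter on low values, 0 were called higher and 2 were called lower, Rpl36a and Rps27l (limma-trend on log2(CPM + 1), Benjamini-Hochberg adjusted p under 0.05 over 13601 genes). Over all genes tested, 15.0% were called, 2.90% higher and 12.1% lower. At an unadjusted p under 0.05 there were 6 members in limma and 1 each in edgeR and DESeq2, none of them higher in DKO. The matching counts over all genes were not taken for the acute or the prolonged comparison. The log2 fold change, DKO minus control, was negative for 79 members and positive for 6, with a median of -0.13 beside -0.07 over all genes tested. With composition scaling by TMM, which moved the median of all genes to 0.01, the members' median was -0.04 and 16 were positive, so the size of the small common deficit depends on the scaling. Leaving out 1 library at a time gave medians from -0.18 to -0.08, the smallest without DKO 4. The 95% interval lay within ±0.5 on the log2 scale for 82 members and within ±1 for all 85.

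Among the 40S genes in the acute comparison, 0 of 31 were called and the median log2 fold change was -0.14, with a range from -0.22 to 0.14. Rps3, a protein of the mRNA entry site that also takes part in DNA repair, was the most abundant of them at 899 ± 129 CPM in DKO and 961 ± 56.4 CPM in control libraries. Rps6, the classical substrate of S6 kinase, averaged 10.7 CPM in DKO and 11.9 CPM in control libraries, a log2 fold change of -0.15 ± 0.13 (SE). Rps19, whose human counterpart is the gene most often mutated in Diamond-Blackfan anaemia, averaged 117 CPM in DKO and 128 CPM in control libraries, and Rps26, which sits at the mRNA exit channel, 253 CPM in DKO and 286 CPM in control libraries. Rpsa, which is also known as a laminin receptor, averaged 237 CPM in DKO and 254 CPM in control libraries. Rps12 had 6.08, 7.80 and 10.8 CPM as the lowest, median and highest DKO library, and 8.73, 6.97, 9.91, 9.96 and 9.82 CPM in the control libraries. None of these genes passed the threshold, and in each the groups overlapped.

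Among the 60S genes, 1 of 45 was called in the acute comparison, Rpl36a, and the median log2 fold change was -0.12. The most abundant member was Rpl4, a protein of the polypeptide exit tunnel. It had 940, 1232 and 1452 CPM as the lowest, median and highest DKO library, and 1369, 1308, 1460, 1347 and 1165 CPM in the control libraries, a log2 fold change of -0.15 ± 0.10 (SE, adjusted p = 0.347). The stalk that recruits elongation factors is made of Rplp0, Rplp1 and Rplp2, which averaged 1172, 550 and 127 CPM in DKO and 1237, 586 and 138 CPM in control libraries. Their log2 fold changes were -0.09, -0.10 and -0.13, and under TMM scaling Rplp0 was at 0.00. Rpl5 and Rpl11, which with 5S RNA bind the p53 regulator MDM2 when ribosome assembly is disturbed, were low at 3.05 and 3.14 CPM in DKO and 3.10 and 3.46 CPM in control libraries. Rpl8 averaged 930 ± 130 CPM in DKO and 999 ± 60.6 CPM in control libraries. Rpl15 had the second lowest log2 fold change of all members, -0.24 ± 0.10 (SE), but its adjusted p was 0.120, and its DKO libraries, from 22.7 to 34.7 CPM, overlapped the control libraries, from 29.7 to 38.8 CPM. The highest log2 fold changes belonged to genes at low CPM. Rpl23a, at 0.20 ± 0.15 (SE), averaged 1.43 CPM in DKO and 1.15 CPM in control libraries. Rps27, at 0.14 ± 0.13 (SE), averaged 0.960 CPM in DKO and 0.788 CPM in control libraries.

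At 5 months the median had moved to the other side of 0. Of the 84 members tested, 0 were called higher and 1 was called lower, Rps27l, which was also the single member at an unadjusted p under 0.05 in limma, edgeR and DESeq2, while over all 13316 genes tested 14.7% were called, 5.74% higher and 8.94% lower. Rpl39l, at 0 to 3 recovered reads per library, did not pass the filter on low values. The log2 fold change was positive for 63 members and negative for 21, with a median of 0.05 beside 0.00 over all genes, and the intervals of 83 members lay within ±0.5. The medians were 0.06 for the 31 40S genes, 0.05 for the 45 60S genes and -0.04 for the 8 tested paralogs and copies. Rpl4 had 1226, 1147, 1272, 1152 and 1197 CPM in DKO and 1374, 1075 and 1182 CPM in control libraries, and Rplp0 had 1019, 929, 1074, 958 and 974 CPM in DKO and 1069, 843 and 971 CPM in control libraries. In both genes the DKO values lay within the control range, apart from Rplp0 in DKO 3, which was just above it. Without prolonged control 2, the library in which most members were lowest, the members' median was -0.04, so the positive sign rests on that library. It was 0.02 without DKO 1, 0.01 without DKO 3 and 0.11 without control 1.

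The highest prolonged log2 fold changes among the subunit genes were those of Rps27, 0.17 ± 0.14 (SE), and Rps12, 0.16 ± 0.12 (SE), and neither passed the threshold. Rps12 had 9.32, 9.33, 8.94, 9.22 and 7.46 CPM in DKO and 8.37, 6.59 and 8.57 CPM in control libraries, so that 4 DKO libraries were above all controls and DKO 5 was between them. Rps6 averaged 11.2 CPM in DKO and 10.7 CPM in control libraries, Rps19 107 CPM in DKO and 98.8 CPM in control libraries, and Rpsa 210 CPM in DKO and 200 CPM in control libraries. The stalk proteins Rplp1 and Rplp2 averaged 507 and 136 CPM in DKO and 480 and 129 CPM in control libraries.

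**Figure D3:**
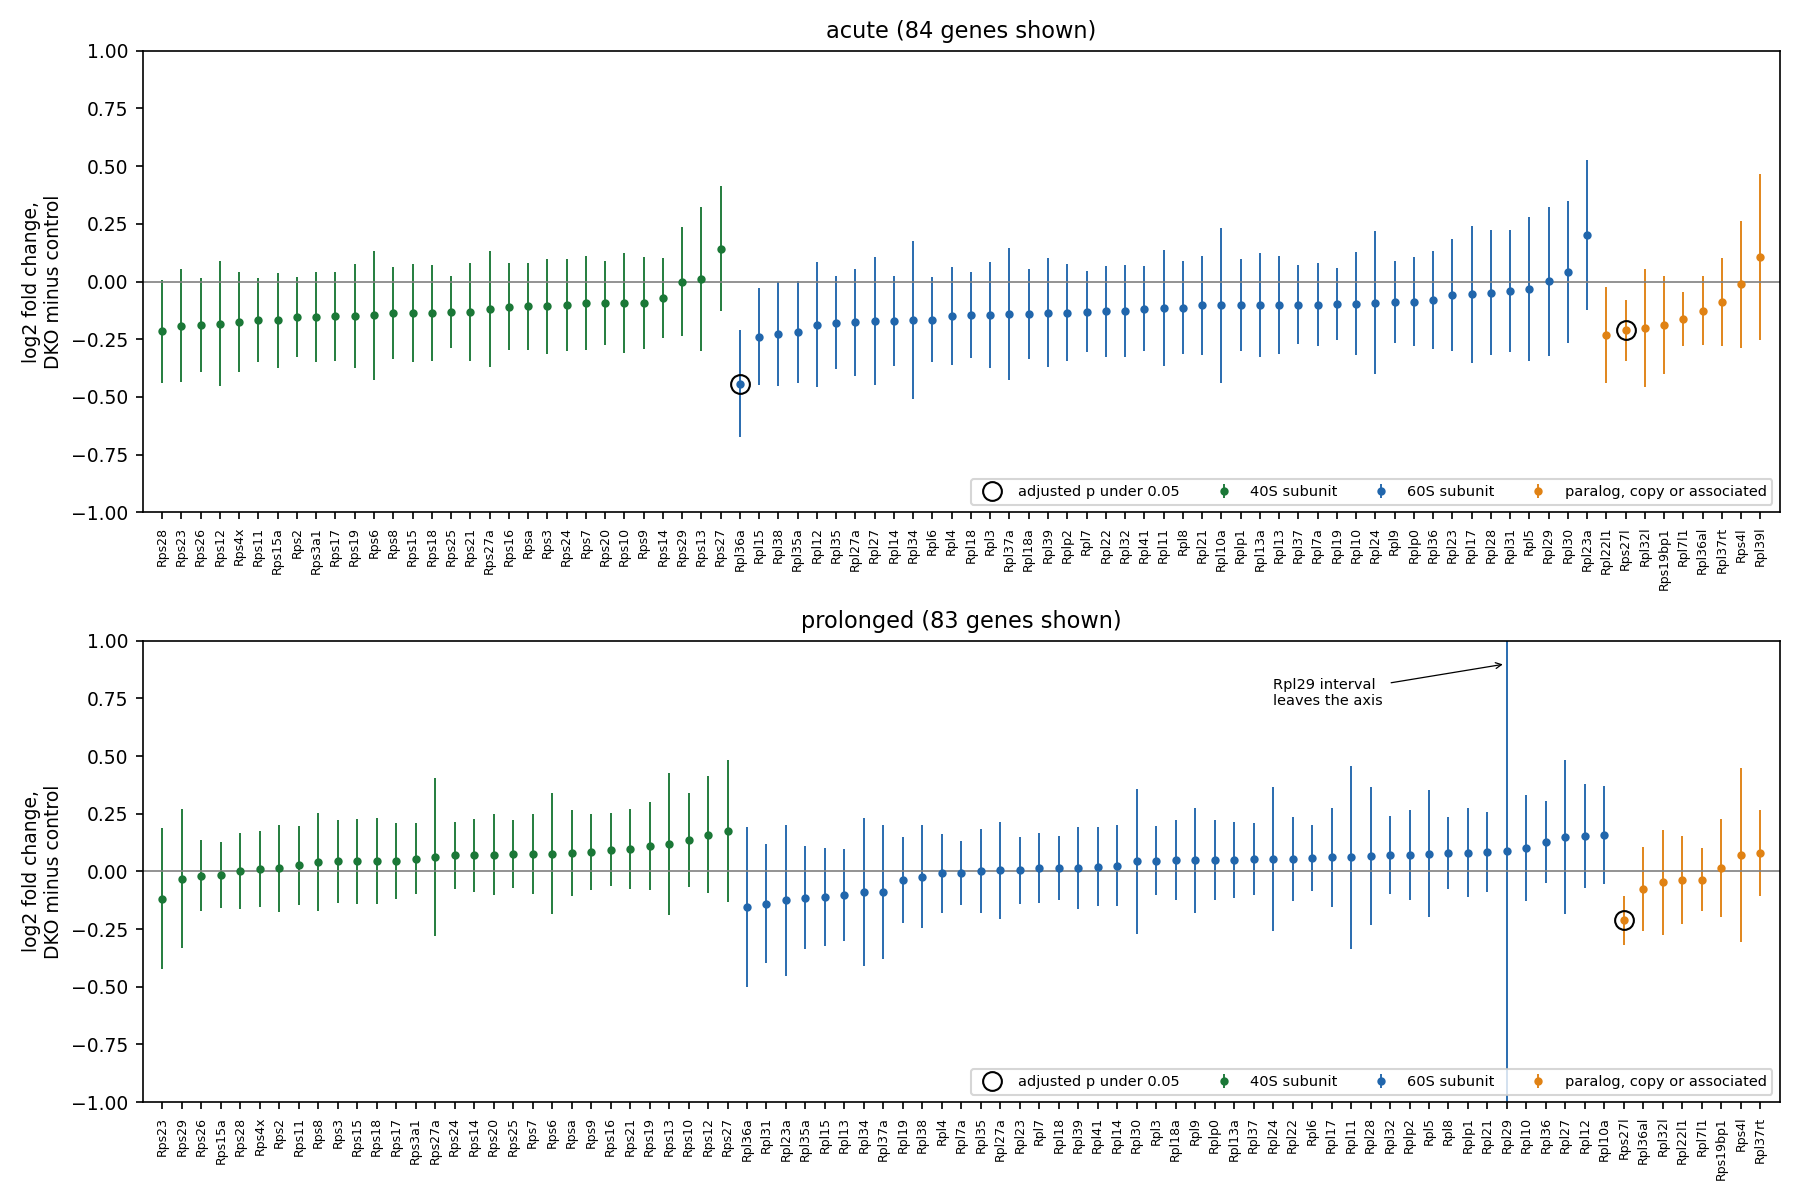
Log2 fold change of log2(CPM + 1), DKO minus control, with its 95% interval for 84 acute (top) and 83 prolonged (bottom) members, ordered within 40S genes (green), 60S genes (blue) and paralogs, copies or associated genes (orange); rings mark an adjusted p under 0.05. Nearly all acute points lie slightly below 0, the prolonged points lie around 0, and Rpl36a and Rps27l carry the rings; the prolonged interval of Rpl29 runs from -2.49 to 2.67, beyond the axis.

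The difference between the effects at the 2 times was tested in a fit over all 20 libraries. No member passed: 0 of 84 members and 0 of 13088 genes, or 0%, had an adjusted p under 0.05 in limma, 0 members and 608 genes had an unadjusted p under 0.05, and the lowest adjusted p of a member was 0.859. Across all genes, DESeq2 called 9 genes, none of them a member. The difference, prolonged effect minus acute effect, was positive for 79 members, with a median of 0.17 beside 0.08 over all genes, and ranged from -0.33 for Rpl23a to 0.34 for Rps12. The median difference was 0.09 with TMM scaling, beside 0.00 over all genes, 0.09 with edgeR, 0.08 with DESeq2 and 0.09 without prolonged control 2.

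Rps27l was the member that was lower in the DKO at both times. It encodes a close relative of Rps27, a zinc-finger protein of the small subunit, and its human counterpart is induced by p53. In the acute DKO libraries it had 106, 113 and 128 CPM as the lowest, median and highest value, and in the acute control libraries 144, 139, 135, 125 and 130 CPM. Most DKO values lay below the controls, and 2 of the 7 were above the lowest control. The log2 fold change was -0.21 ± 0.06 (SE, limma, adjusted p = 0.0328). That acute call was lost with TMM scaling, where the log2 fold change was -0.12 (adjusted p = 0.321), with edgeR's quasi-likelihood test (adjusted p = 0.353) and with DESeq2 (adjusted p = 0.453), and also without DKO 1, 2 or 5 or control 1, 2 or 3 (limma, adjusted p from 0.0540 to 0.0896).

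In the prolonged DKO libraries Rps27l had 95.5, 96.8, 94.7, 99.9 and 92.8 CPM, and in the prolonged control libraries 115, 106 and 113 CPM. Every DKO value was below every control value; over all genes tested, 11.7% had all DKO libraries below all controls and 8.82% had them above, and Rps27l was the only member of either kind. The log2 fold change was -0.21 ± 0.05 (SE, limma, adjusted p = 0.0130), and the call held with TMM scaling, edgeR and DESeq2. It was lost without prolonged control 3, where the adjusted p was 0.0684 and the log2 fold change -0.20. Rps27l thus fell by 0.21 on the log2 scale at both times, and the difference between the times was not past the threshold. Its canonical relative Rps27 gave only 5 to 28 reads per library: 0.653, 0.960 and 1.31 CPM as the lowest, median and highest acute DKO library against 1.03, 1.05, 0.907, 0.466 and 0.478 CPM in the acute control libraries.

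Rpl36a was lower in the acute DKO. It encodes a protein of the large subunit near the exit site for transfer RNA and is X-linked, and it has a paralog, Rpl36al. The acute DKO libraries had 2.0, 2.28 and 3.31 CPM as the lowest, median and highest value, and the control libraries 3.74, 3.47, 3.95, 3.43 and 3.66 CPM. No DKO library reached the lowest control; 6.55% of all genes tested had every acute DKO library below every control, and 1 of 85 members did. These levels stand for 43 to 88 reads in DKO and 61 to 92 reads in control libraries. The log2 fold change was -0.44 ± 0.11 (SE, 95% interval -0.67 to -0.21, limma, adjusted p = 0.0139), and the call was lost with edgeR (adjusted p = 0.0602) and with ranges of the animal number as a block (limma, adjusted p = 0.0514). In the prolonged comparison Rpl36a had 3.50, 1.92, 2.06, 2.67 and 3.19 CPM in DKO and 3.28, 2.98 and 2.82 CPM in control libraries, which overlap (log2 fold change -0.15 ± 0.16, SE).

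The paralog Rpl36al was far more abundant in CPM and did not pass the threshold at either time. It averaged 78.8 ± 6.97 CPM in acute DKO and 86.0 ± 6.55 CPM in acute control libraries, and 67.1 ± 6.82 CPM in prolonged DKO against 70.6 ± 5.64 CPM in prolonged control libraries. Per kilobase of transcript, Rpl36al stood at 61.7 CPM and Rpl36a at 5.06 CPM in the acute DKO, and at 67.4 and 7.56 CPM in the acute control.

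**Figure D4:**
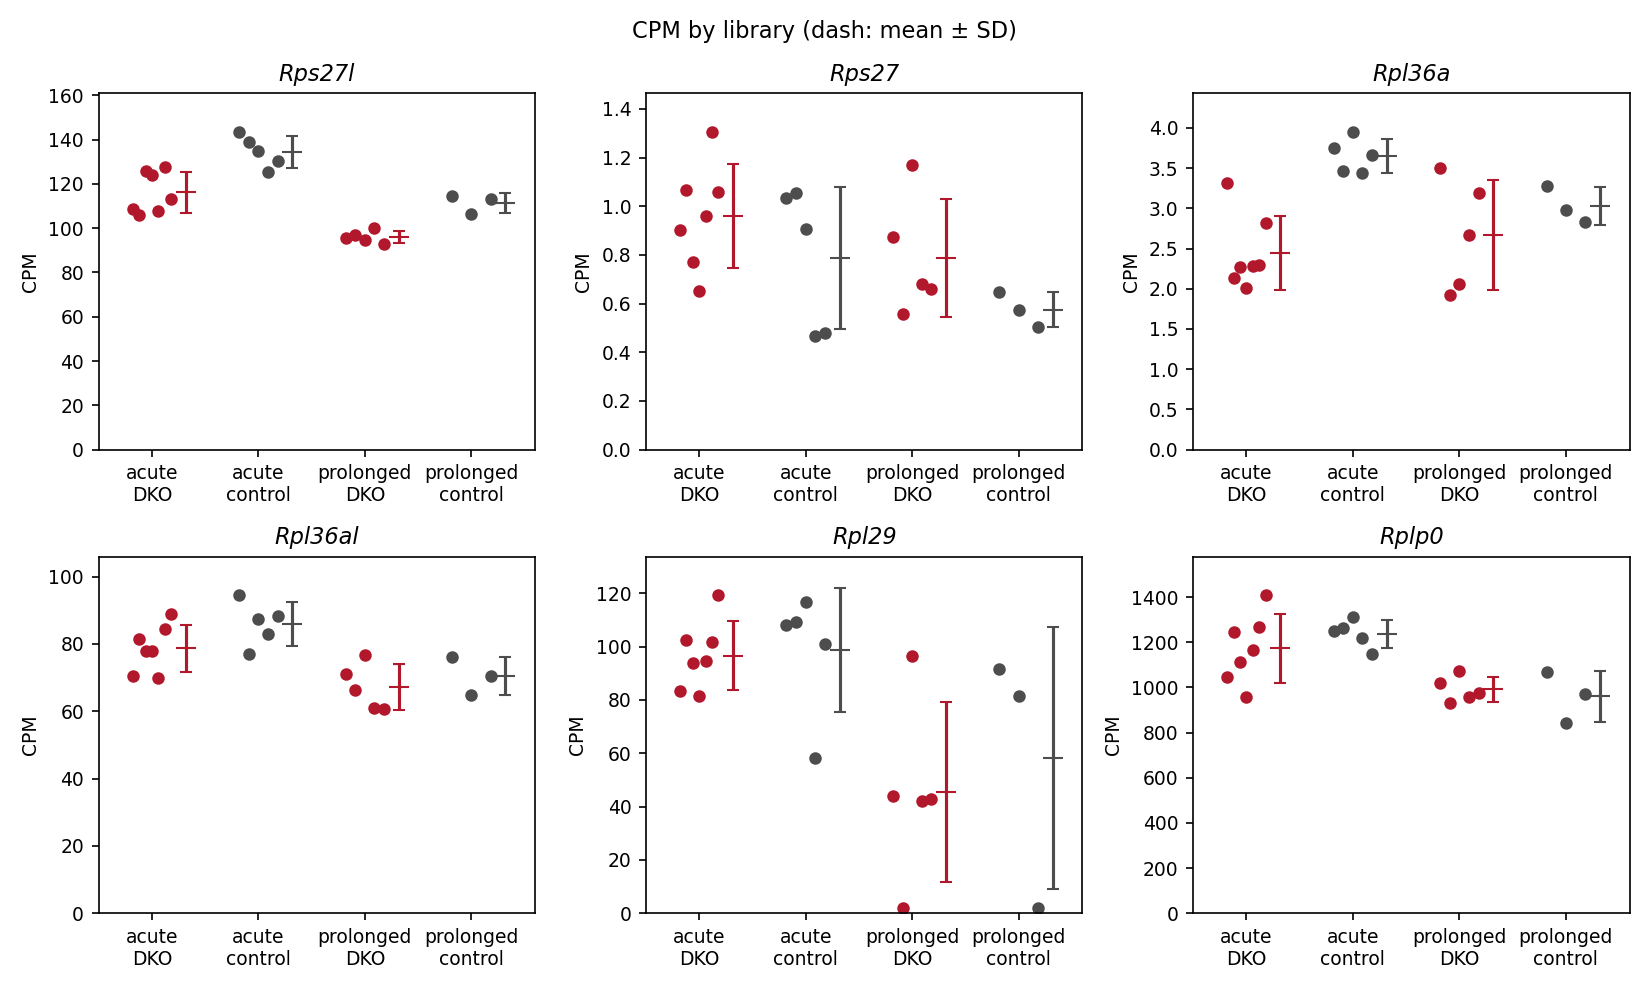
CPM of Rps27l, Rps27, Rpl36a, Rpl36al, Rpl29 and Rplp0 in each library, with the mean ± SD beside the points, DKO in red and control in grey. Rps27l lies lower in DKO at both times, Rpl36a lies lower in the acute DKO while its prolonged groups overlap, and Rpl29 is near 2 CPM in prolonged DKO 2 and prolonged control 3.

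The other paralogs and associated genes were not called. Rpl7l1, a relative of Rpl7 found in precursors of the large subunit, came closest in the acute comparison: 81.7, 86.3 and 96.9 CPM as the lowest, median and highest DKO library, against 105, 97.5, 103, 94.3 and 90.3 CPM in the control libraries. Its log2 fold change was -0.16 ± 0.05 (SE, limma, adjusted p = 0.0574), and it passed the threshold without DKO 7 (adjusted p = 0.0245) or without control 5 (adjusted p = 0.0351). Rpl22l1 averaged 34.5 ± 4.57 CPM in acute DKO and 40.6 ± 4.35 CPM in acute control libraries (log2 fold change -0.23, adjusted p = 0.132), and its partner Rpl22 226 ± 33.0 CPM in acute DKO and 245 ± 12 CPM in acute control libraries. In the prolonged libraries Rpl22l1 averaged 33.9 ± 3.51 CPM in DKO and 34.7 ± 2.0 CPM in control libraries. Rps4l, a copy of Rps4x, stood lower in the prolonged than in the acute table in both genotypes: 55.1 ± 11.1 CPM in acute DKO and 54.8 ± 5.24 CPM in acute control libraries, and 25.1 ± 4.31 CPM in prolonged DKO and 24.4 ± 8.05 CPM in prolonged control libraries. The tables of the 2 times are separate, so this difference between times was not tested. Rps19bp1, which encodes a binding partner of RPS19, averaged 18.9 ± 2.58 CPM in acute DKO and 21.6 ± 1.64 CPM in acute control libraries. Rpl32l averaged 12.8 CPM in acute DKO and 14.8 CPM in acute control libraries, and Rpl37rt 135 CPM in acute DKO and 142 CPM in acute control libraries; both were chosen after their values were seen.

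Rpl29 varied more between libraries than any other 60S gene of the prolonged set. Its highest and its lowest values were found in both genotypes, and the values between them in DKO only. It encodes a 60S protein that also binds heparin. The prolonged DKO libraries had 43.8, 1.92, 96.6, 42.2 and 42.7 CPM, and the prolonged control libraries 91.5, 81.6 and 1.92 CPM. The values fell near 3 levels: at or above 81.6 CPM in DKO 3, control 1 and control 2, from 42.2 to 43.8 CPM in DKO 1, 4 and 5, and 1.92 CPM in DKO 2 and control 3, where 31 and 19 reads were counted. The prolonged log2 fold change was accordingly uncertain, 0.09 ± 1.18 (SE, 95% interval -2.49 to 2.67), and without control 3 it was -1.54. In the acute libraries Rpl29 had 81.4, 94.5 and 119 CPM as the lowest, median and highest DKO library and 108, 109, 117, 58.3 and 101 CPM in the control libraries, control 4 being the only acute library below 81 CPM. Rpl29 was chosen after its values were seen.

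Genes that work with the ribosomal proteins were read from lists of related genes. Of ribosomal proteins whose symbols fall outside the name rule, Rack1 and Fau were not called at either time. Rack1, a signalling scaffold on the 40S head, averaged 1117 ± 134 CPM in acute DKO and 1188 ± 81.3 CPM in acute control libraries, and Fau, which encodes a ribosomal protein fused to a ubiquitin-like protein, had an acute log2 fold change of 0.05. Of 42 translation factors tested, 0 rose and 5 fell in the acute DKO, where 2.90% of all genes rose and 12.1% fell. In the prolonged DKO 1 rose and 1 fell, where 5.74% of all genes rose and 8.94% fell. Eif3b, a scaffold subunit of initiation factor eIF3, averaged 254 ± 18.5 CPM in acute DKO and 300.2 ± 17.5 CPM in acute control libraries (log2 fold change -0.24, adjusted p = 0.0145, limma), and Eif5a, an elongation factor, fell by 0.23. In the prolonged DKO Eif4ebp1, an inhibitor of cap binding under mTORC1 control, rose by 0.30 and Eif1ax, which takes part in start codon selection, fell by 0.23.

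Of ribosome biogenesis genes, whose products make ribosomal RNA and assemble the subunits, more were called lower in the acute than in the prolonged DKO. The acute comparison had more libraries, and the effect differed between the times for 0 of 13088 genes (limma, adjusted p under 0.05). Of 73 tested, 0 rose and 16 fell in the acute DKO, where 2.90% of all genes rose and 12.1% fell. Their median log2 fold change was -0.22, beside -0.07 over all genes. Gar1 and Nhp2, proteins of the particles that guide pseudouridylation of ribosomal RNA, fell by 0.49 and 0.42. Gar1 averaged 24.3 ± 3.81 CPM in DKO and 34.1 ± 2.69 CPM in control libraries (adjusted p = 0.00633, limma). In the prolonged DKO 0 rose and 2 fell, where 5.74% of all genes rose and 8.94% fell. The 2 were Pno1 and Utp20, assembly factors of the small subunit, which fell by 0.27 and 0.26. Whether the biogenesis and ribosomal protein genes differ in their response was not tested.

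Of 21 genes of growth control upstream of ribosome synthesis, 0 rose and 2 fell in the acute DKO, namely Mycn and Larp1. There 2.90% of all genes rose and 12.1% fell. In the prolonged DKO 2 rose and 1 fell, the latter Mycn, where 5.74% of all genes rose and 8.94% fell. Mycn, a transcription factor that drives ribosome synthesis, averaged 3.12 ± 1.71 CPM in acute DKO and 7.87 ± 1.04 CPM in acute control libraries, and 1.79 ± 0.533 CPM in prolonged DKO and 5.96 ± 1.52 CPM in prolonged control libraries, with log2 fold changes of -1.21 and -1.31. Larp1, which binds the pyrimidine run of ribosomal protein mRNAs, fell by 0.29 in the acute DKO. In the prolonged DKO Max, the partner of MYC proteins, rose by 0.29 and Tsc2, which restrains mTORC1, rose by 0.21. All 28 cell cycle genes fell in the acute DKO, beside 12.1% of all genes. Their median log2 fold change was -0.64, beside -0.07 over all genes. Of the 28, 25 fell in the prolonged DKO, beside 8.94% of all genes, with a median of -0.42 beside 0.00 over all genes. The summed level of the 8 crypt stem and progenitor markers ranged from 828 to 1463 CPM in acute DKO and from 1784 to 2383 CPM in acute control libraries, and that of the 6 Paneth cell markers from 863 to 3944 CPM against 4471 to 9006 CPM. In the prolonged libraries the crypt markers summed to between 1459 and 1701 CPM in DKO and between 2128 and 2389 CPM in control libraries. Such sums weigh the most abundant markers most. Of the 8 crypt markers, 4 were called lower in the acute DKO, beside 12.1% of all genes, and 2 in the prolonged DKO, beside 8.94%. None of the 8 was called higher. The part of these marker differences in the values of the ribosomal protein genes was not tested.

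Levels within the family spread widely, although the proteins are used in equal numbers. Over the 76 subunit genes, CPM per kilobase of the principal transcript in acute control libraries ran from 0.587 for Rpl30 to 1174 for Rplp1, with a median of 94.1. Of the 76 genes, 15 were under 10 CPM per kilobase, among them Rpl5, Rpl11, Rpl23a, Rpl24, Rpl28, Rps13, Rps23 and Rps27. Ribosomal protein genes have many processed pseudogenes, so reads from them can match elsewhere. To describe this, every 50-base window of each transcript was looked up in all other genes of GENCODE M21. Rps27 had 1.35% of its windows in no other gene, Rpl5 6.16% and Rpl36a 14.5%, whereas Rps27l had 77.6% and Rpl8 93.5%. The 20 subunit genes with under 25% of such windows had a median of 24.3 CPM per kilobase, the 47 with 25 to 75% a median of 132, and the 9 above that a median of 119. Across the 76 genes, which share libraries and base composition, Spearman's rho between the share of such windows and the level was 0.34 in acute control libraries. Some genes went against the order, such as Rpl28, with 52.6% of its windows in no other gene and 1.95 CPM per kilobase. The sources used here do not say how reads that match several genes were counted, so the levels of these genes relative to each other are uncertain, and a low level here does not show low expression.

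**Figure D5:**
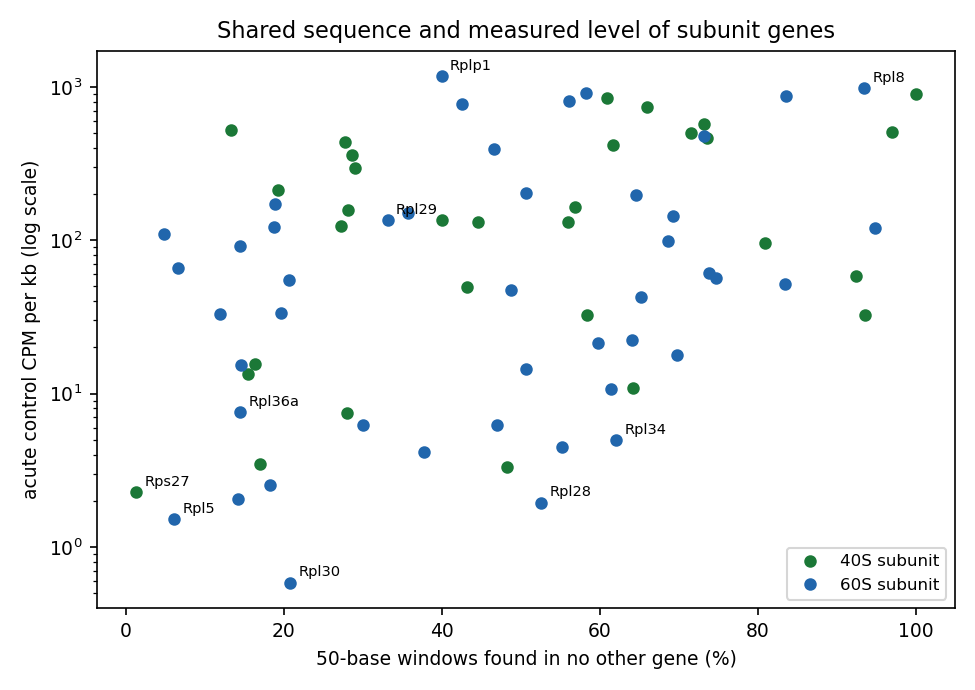
Level of each subunit gene in acute control libraries, as CPM per kilobase on a log axis, against the percentage of 50-base windows of its transcript that are found in no other annotated gene, with 40S genes in green and 60S genes in blue. Genes with few such windows include the lowest levels, such as Rpl30 at 0.587 CPM per kilobase, but genes with 25 to 75% span nearly the whole range.

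The stretch around the transcription starts of the members was described. Whether it bears on their shift from library to library was not tested. RefSeq promoters of GRCm38.p6 matched 64 of the 85 genes with 75 promoters. A cytosine followed by at least 4 pyrimidines, starting within 10 bases of the annotated start on the transcribed strand, was found in 37 of the 75 promoters, or 49.33%, against 28.96% of all 32851 promoters. The mirror run of purines was found in 18.67% of member promoters and in 33.02% of all promoters. The motif CCGGAAG, on either strand of the 300 bases, occurred in 34.67% of member promoters and in 8.858% of all promoters. Such matches describe letters and do not mark sites in use. The sequences below show both called genes, genes at the ends of the fold change order and the most abundant members, each from 60 bases before to 20 bases after the annotated start, with capitals for the pyrimidine run and for CCGGAAG.
Rpl36a, chrX:134585594-134585673, plus strand: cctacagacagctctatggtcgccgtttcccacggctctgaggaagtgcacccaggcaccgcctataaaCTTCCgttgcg
Rps27l, chr9:66946026-66946105, plus strand: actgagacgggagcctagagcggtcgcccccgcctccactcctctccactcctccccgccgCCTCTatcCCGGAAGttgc
Rpl15, chr14:18270967-18271046, minus strand: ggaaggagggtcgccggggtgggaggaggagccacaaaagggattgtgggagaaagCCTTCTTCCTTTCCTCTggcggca
Rps27, chr3:90213629-90213708, minus strand: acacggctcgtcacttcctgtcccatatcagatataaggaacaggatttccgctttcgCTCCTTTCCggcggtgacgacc
Rpl4, chr9:64173327-64173406, plus strand: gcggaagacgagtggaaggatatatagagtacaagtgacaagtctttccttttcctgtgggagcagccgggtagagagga
Rplp0, chr5:115559407-115559486, plus strand: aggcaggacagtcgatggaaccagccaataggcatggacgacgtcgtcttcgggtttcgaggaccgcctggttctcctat

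Among these, Rpl15 carries the longest run, 17 pyrimidines, and Rps27 a run of 9, both starting just before the annotated start. The runs of Rpl36a and Rps27l are 5 bases long, and Rps27l has the CCGGAAG motif just after its run. Rpl4 and Rplp0 have no run that starts within 10 bases of the annotated start, as the rule asks. Both show a run of pyrimidines that starts further from it, upstream in Rpl4 and downstream in Rplp0. The acute log2 fold changes of the genes with a run that meets the rule were -0.44 for Rpl36a and -0.21 for Rps27l, both called, and -0.24 for Rpl15 and 0.14 for Rps27, neither called. Those of Rpl4 and Rplp0 were -0.15 and -0.09, neither called. The genes were chosen in part by these values, so they do not compare promoters with and without such a run.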

How the data were processed

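Members and gene lists were chosen with earlier results of these data known. Per the submitters' processing notes, the build was mm9 and the tools included STAR, featureCounts 1.6.2 and DESeq2, with no role given; strand settings are not given in the sources used here. The authors deposited, for each time, CPM per gene and library with no composition scaling, and, per the file headers, DESeq2's mean normalised signal, log2 fold change and p-values. Every deposited CPM value was a whole number of reads within 0.01 reads, so read counts could be recovered (the evidence is weaker for prolonged control 3, where 1 read is worth about 0.1 CPM). The other deposited score columns were not used here.

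limma-trend 3.58.1 (R 4.3.3) was fitted on log2(CPM + 1) for each time alone, DKO minus control, for genes with at least 0.5 CPM in 5 acute or 3 prolonged libraries, with Benjamini-Hochberg adjustment over all genes tested. Fold changes on this scale understate changes of low genes. The code was tested on simulated data. Per the labels the libraries are biological replicates. Alternatives were TMM scaling, CPM outside the members, edgeR 4.0.16, DESeq2 1.42.0, a pseudocount of 0.25, no filter, blocks, and leaving out libraries. Named members are those called, the 2 largest and 2 smallest fold changes and the 4 highest levels at each time, and the paralogs with their parents; the others are named by role or as stated. From each related list the 2 called genes with the largest change are named. The files use mm9, so GENCODE M21 and RefSeq were used only for sequence and, in RefSeq, to find the genes near Rpl29. Values of 1 member and of 1 related gene are not reported here.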

Additional observations from a re-analysis of the deposited data

Results flagged for a closer look

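The values of named members, the summed shares and the subunit ratio were examined in 90 sets of 5 or 7 libraries. In 6 of the 90 sets, the highest or lowest library lay far from the rest of its group, where chance gives about 1 in 20. The 3 prolonged control libraries were too few to be examined. Rpl29 had 58.3 CPM in acute control 4, and the next lowest control had 101 CPM. Rpl30 had 1.23 CPM in its highest acute control, control 3, a value of 19 reads. Rpl39 had 27.1 CPM in its lowest acute control, control 5. Rpl7 had 336 CPM in its lowest acute DKO library, DKO 4. Rps12 had 10.8 CPM in its highest acute DKO library, DKO 7, and 7.46 CPM in its lowest prolonged DKO library, DKO 5. Acute DKO 4 and DKO 7 are also the libraries in which most members had their lowest and highest acute values.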

How the results depend on the processing

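At each time 0 members were called higher under every alternative run, and 0 differed between the times. With a replicate block the members' median difference between the times was 0.27, beside 0.12 over all genes. In that fit 26 members had an unadjusted p under 0.05 (limma, lowest adjusted p = 0.755). The matching counts over all genes were not taken under the block, there or for the acute comparison. The 2 acute members called lower were 1 with TMM scaling, 0 with edgeR, 1 with DESeq2 and 0 with a replicate block, and 1 to 4 when a library was left out; the 4, without DKO 7, were Rpl35a, Rpl36a, Rpl7l1 and Rps27l. With edgeR and the block the lowest adjusted p was 0.0602 and 0.0794, and 1 and 35 members had an unadjusted p under 0.05; the acute median was -0.04 and -0.19. The 1 prolonged member called lower was 0 with the replicate block and 0 to 1 when a library was left out. The calls over all genes, 2035 acute and 1955 prolonged, were 947 and 528 with the block, 1239 to 2186 acute and 1051 to 1721 prolonged without a library, the fewest without acute control 3 and prolonged control 3. Same-numbered DKO and control libraries did not deviate together (correlations from -0.24 to 0.20), so the numbers do not pair the libraries. Acute DKO 6 and 7 and prolonged DKO 4 and 5 have no same-numbered control, so they add nothing to the comparison under the replicate block. A block of animal number ranges lost Rpl36a (limma, adjusted p = 0.0514) and called Rpl7l1 (limma, adjusted p = 0.0295). The ranges of acute DKO 3 and 4 and of acute control 5 held no library of the other genotype. These libraries thus add nothing to the comparison under that block.

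Of 909 values of single genes under alternatives, 834 kept their direction and side of the threshold, 15 lost a call, 3 gained one and 57 changed sign, none of those called. In the acute comparison with TMM, edgeR and DESeq2, the log2 fold change of Rplp0 came to 0.00228, 0.00573 and 0.0154 and Rps4l to 0.0752, 0.11 and 0.121 (0.0497 with the block); Rpl37rt came to 0.00323 and 0.0135 with edgeR and DESeq2, and Rpl29 to -0.00157 per reads outside the members and -0.0782 with the block. In the prolonged comparison Rpl4 came to 0.00196 with TMM and 0.0115 with the block, Rpl29 to -0.401 with edgeR, -0.350 with DESeq2 and -0.268 with the block, and with the block Rps4l to -0.0260, Rpl36al to 0.0151 and Rpl7l1 to 0.00271. Without a library the acute ranges of the log2 fold change were -0.177 to 0.0700 for Rpl29, -0.0394 to 0.188 for Rpl30 and -0.0641 to 0.0533 for Rps4l. The prolonged ranges were -1.54 to 0.948 for Rpl29, -0.0778 to 0.316 for Rps4l, -0.0892 to 0.0873 for Rpl4, -0.0605 to 0.0991 for Rpl7, -0.0521 to 0.155 for Rpl22, -0.0836 to 0.00677 for Rpl22l1, -0.0414 to 0.13 for Rplp0, -0.0488 to 0.144 for Rps3, -0.0695 to 0.0804 for Rpl39, -0.0844 to 0.108 for Rps4x, -0.0616 to 0.125 for Rpl30, -0.0401 to 0.097 for Rpl3, -0.0668 to 0.0767 for Rps19bp1, -0.113 to 0.00529 for Rpl32l and -0.0795 to 0.00481 for Rpl7l1. The causes were not tested. Without acute DKO 3 and 4 together, chosen after seeing the data, the members' acute median was -0.06 and the 2 calls were the same genes. With few reads in genes such as Rps27 and Rpl30, only large differences could be detected.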

Other observations

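Genes near Rpl29 on the chromosome, within 1000000 bases in RefSeq, were read after the 3 levels of Rpl29 had been seen. Mapkapk3, a kinase, had 46.3, 35.3, 71.0, 46.1 and 48.5 CPM in the prolonged DKO and 60.7, 51.2 and 31.9 CPM in the prolonged control libraries. Its lowest values were in DKO 2 and control 3, the libraries with 1.92 CPM of Rpl29. Acy1, an aminoacylase, ran the other way, with 243, 285, 196, 222 and 227 CPM in the prolonged DKO and 170, 182 and 272 CPM in the prolonged control libraries, and its highest values were in the same pair of libraries. In acute control 4, where Rpl29 was at 58.3 CPM, Acy1 had 219 CPM, the highest acute value, and Mapkapk3 had 52.5 CPM, the lowest. These genes were chosen after their values were seen, and no cause was tested.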
